A study of Homo sapiens with 6 samples.

Results

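NRF2 is the transcription factor that switches on a large part of the antioxidant and detoxifying gene programme of human cells. The 9 genes described here are NFE2L2, which encodes NRF2, its repressor KEAP1, and 7 well known NRF2 target genes, NQO1, HMOX1, GCLC, GCLM, TXNRD1, SRXN1 and SLC7A11. They were taken by gene symbol from the protein-coding rows of the deposited table, and all 9 were found among its 58735 genes. The cells were NCI-N87, an established gastric carcinoma line, and the study knocked down SCAMP1, a membrane protein of the endocytic recycling system, to ask which genes then change. Cells were exposed for 24 h to lentivirus that carried the empty vector (shCtrl, named shNC in the labels) or an shRNA against SCAMP1 (shS1#1, named shScamp1), and were kept under puromycin (2 μg/ml) as stable populations. RNA was taken at about 80% confluence from 3 samples per group. Both groups share the vector and the puromycin selection, and a single shRNA stands for the knockdown. The control vector held no shRNA, so carrying an shRNA and losing SCAMP1 cannot be told apart.

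In unstressed cells KEAP1 binds NRF2 and presents it to the CUL3 ubiquitin ligase, so that NRF2 is degraded. Oxidants and electrophiles modify KEAP1, and NRF2 then accumulates, pairs with a small MAF protein and binds antioxidant response elements (AREs) in DNA. Much of this control acts on the NRF2 protein, which RNA-seq does not measure. In gastric cancer, as in other carcinomas, the pathway is known for protection against drugs and oxidative damage.

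The core of the ARE is TGACNNNGC, where N is any base, and it was searched on both strands of the RefSeq promoter windows (GRCh38.p14), which run from 250 bases before to 50 bases after a transcription start. Windows were present for 7 of the 9 genes, and the entries for HMOX1 and SLC7A11 are missing. These 7 genes have 10 windows, and 4 of the 10, from TXNRD1, KEAP1 and GCLM, held at least 1 match, while 13.3% of all 35116 promoter windows held this core. The matches are printed because the ARE is the element that NRF2 binds, 5′ to 3′ on the strand of the gene, with the 9 bases of the match in capitals. TXNRD1, KEAP1 and NFE2L2 have a window at each of 2 starts.

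TXNRD1, chr12:104215670-104215698, forward strand: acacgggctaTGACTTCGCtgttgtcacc

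TXNRD1, chr12:104215761-104215789, forward strand: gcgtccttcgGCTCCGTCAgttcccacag

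TXNRD1 downstream start, chr12:104286920-104286948, forward strand: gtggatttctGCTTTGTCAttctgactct

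KEAP1 downstream start, chr19:10502807-10502835, reverse strand: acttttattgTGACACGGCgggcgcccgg

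KEAP1 downstream start, chr19:10502784-10502812, reverse strand: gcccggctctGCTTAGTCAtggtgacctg

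GCLM, chr1:93909446-93909474, reverse strand: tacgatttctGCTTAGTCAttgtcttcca

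The matches of GCLM and of KEAP1 nearest the start share the same 9 letters, GCTTAGTCA, which is the core read from the other strand. These matches begin 34 bases before the start in GCLM and 31 bases before it in KEAP1. No match overlapped an AP-1 site (TGANTCA, which reads the same on both strands and occurs in 7.71% of all windows). A match is a description of letters, and the windows of NFE2L2, NQO1, GCLC and SRXN1, which held none, cover only the bases next to the start.

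Expression was deposited as FPKM, reads scaled to gene length and library size. The reads on genes, recovered from these values, ranged from 15064905 to 15988700 in shCtrl and from 14311769 to 14667628 in shS1#1 libraries. SCAMP1 had 12.1 ± 0.562 FPKM in shCtrl and 1.69 ± 0.311 FPKM in shS1#1 cells (SD, n = 3 per group), a decrease to 0.140 of the control level. Replicate 2 of shS1#1 stood apart. The squared difference in reads per gene, in units of counting noise, was between 1.97 and 2.71 for pairs of shCtrl libraries and 3.11 for shS1#1 replicates 1 and 3, but 35.5 and 44.9 for the pairs that hold shS1#1 replicate 2. The mitochondrial share of reads was 9.21% in that library and between 6.09% and 6.78% in the others. What sets it apart was not tested, and the calls of the 9 genes and the counts of each list are given with and without it. The sum of 10 gastric epithelial markers ran from 5430 to 5711 FPKM in shCtrl and from 9071 to 10024 FPKM in shS1#1 libraries. It was led by KRT8, at 2268 FPKM on average. Of the 10 markers, 7 averaged 0.5 FPKM or more. By the test described below, 5 markers were higher and none lower, beside 8.82% and 5.17% of all genes. TFF1 and TFF3 were listed at 0. Sums of fibroblast, leukocyte, endothelial and erythroid markers stayed under 1 FPKM in all 6 libraries. In bulk RNA, fewer cells of a type and less RNA per cell cannot be told apart.

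Of the 9 genes, 5 were higher in shS1#1 cells, SLC7A11, HMOX1, TXNRD1, GCLC and NFE2L2, and none was lower. The largest changes were in the cystine transporter SLC7A11, the haem-degrading enzyme HMOX1 and the thioredoxin reductase TXNRD1, which rose to 2.41, 2.02 and 1.86 times the control mean. Genes were called at a Benjamini-Hochberg adjusted p under 0.05 by limma on log2(FPKM + 0.1) over the 15556 genes averaging 0.5 FPKM or more, and all 9 were among them. The share of all genes called higher was 8.82% and that called lower was 5.17%. Beyond an absolute log2 fold change of 1 lay 2 of the 9, SLC7A11 (1.24) and HMOX1 (1.00), against 3.16% of all genes in either direction. HMOX1 lay just inside this threshold and TXNRD1 (0.89) just outside, and HMOX1 fell under it without shCtrl replicate 1 (0.98), shS1#1 replicate 1 (0.95) or shS1#1 replicate 3 (0.98). For 8 of the 9 genes the group ranges were separate, with SRXN1 the exception, against 41.4% of all genes. The median log2 fold change was 0.38 over the 9 genes and -0.02 over all genes tested. Without shS1#1 replicate 2, 8 of the 9 were called higher, against 14.9% of all genes, and again none was lower, against 13.4%. In each of the 5 fits that left out any other library, 3 were called, SLC7A11, HMOX1 and TXNRD1. The share of all genes called in those 5 fits is not given here. Whether the loss of calls among the 9 differed from the loss over all genes was thus not examined.

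**Figure D1:**
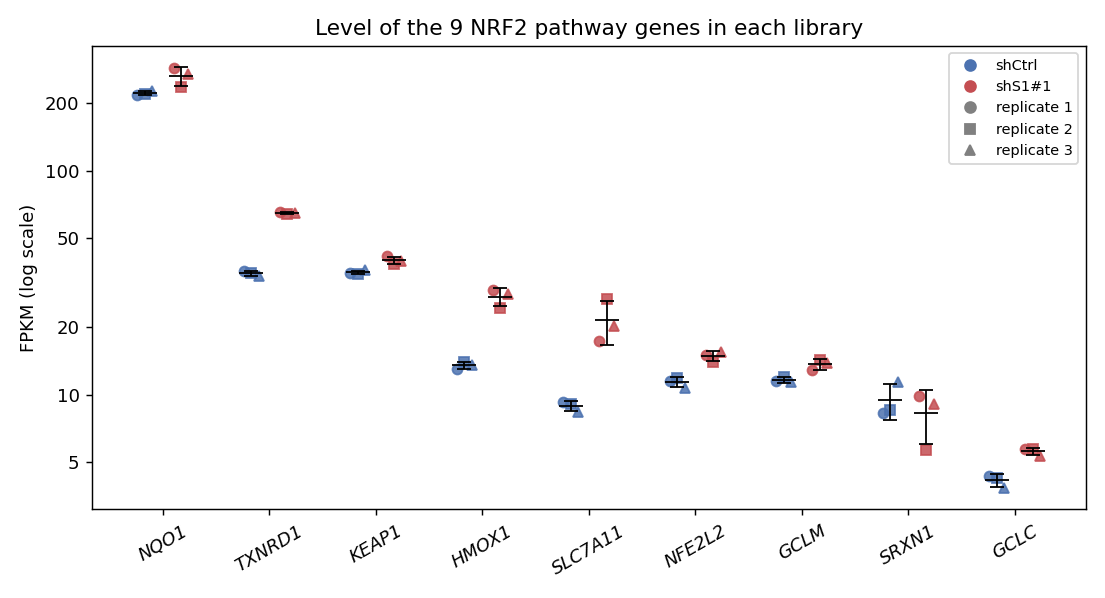
FPKM (log axis) of each gene in the 3 shCtrl (blue) and 3 shS1#1 (red) libraries, with the symbol giving the replicate number and black bars the mean ± SD (n = 3). TXNRD1, HMOX1 and SLC7A11 show the widest gaps between the groups, and SRXN1 is the only gene whose groups overlap.

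**Figure D2:**
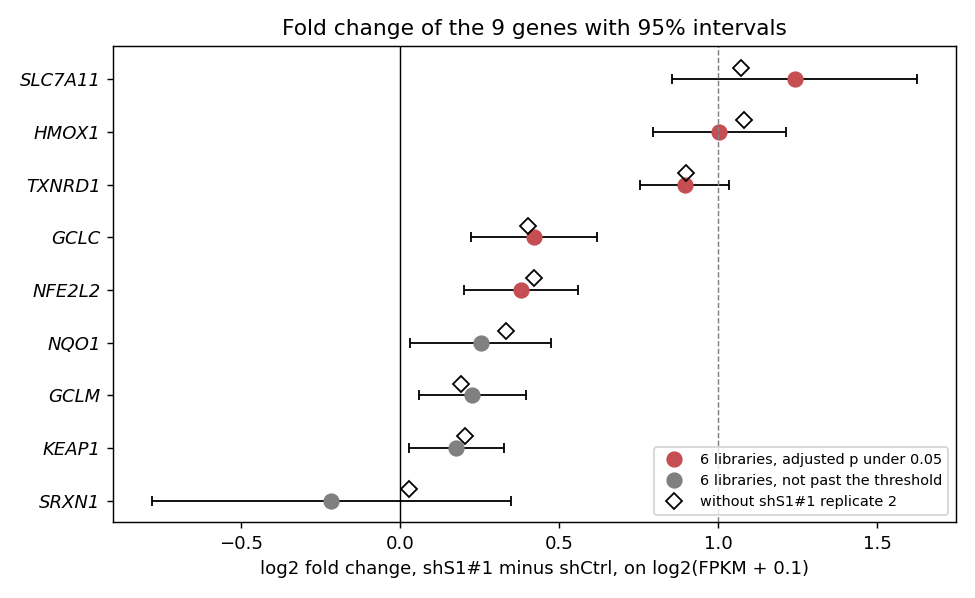
Log2 fold change of each gene (shS1#1 minus shCtrl) with its 95% interval from limma with 6 libraries, and the value without shS1#1 replicate 2 as an open diamond; the dashed line marks a log2 fold change of 1. Estimates run from -0.22 for SRXN1 to 1.24 for SLC7A11, and SRXN1 moves to 0.028 when that library is left out.

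Among the regulators, NFE2L2, on chromosome 2 from 177227595 to 177392697, rose modestly. Its level was 11.5, 11.9 and 10.7 FPKM under shCtrl, replicate by replicate, and 15.0, 14.0 and 15.5 FPKM under shS1#1. Every shS1#1 value lay above every shCtrl value, and shS1#1 replicate 2 was the lowest of its group. limma estimated 0.38 ± 0.07 on the log2 scale (estimate ± standard error; adjusted p = 0.0210). The adjusted p was 0.00474 without shS1#1 replicate 2 and between 0.0549 and 0.0940 when any other library was left out, and it was 0.0602 when libraries were scaled to total reads. Of the 5979 exonic bases of NFE2L2, 20.9% are shared with exons of other annotated genes, mostly of the overlapping transcript AC019080.1, which was at 0.191 FPKM on average.

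KEAP1, the adaptor that marks NRF2 for degradation, lies on chromosome 19 from 10486120 to 10503741. It was at 35.0, 34.6 and 35.9 FPKM in shCtrl replicates 1 to 3, against 41.5, 38.4 and 39.5 FPKM in shS1#1 replicates 1 to 3, so the groups did not overlap. The log2 fold change of 0.18 (95% interval 0.03 to 0.33) did not pass the threshold with all 6 libraries (adjusted p = 0.108) and passed it without shS1#1 replicate 2 (adjusted p = 0.0144). The ratio of NFE2L2 to KEAP1, the factor to its repressor, was 0.324 ± 0.0229 in shCtrl and 0.373 ± 0.0172 in shS1#1 cells (SD, n = 3 each). The groups did not overlap in this ratio, a log2 difference of 0.20 (two-sided exact permutation, p = 0.1, and 3 against 3 samples cannot give less).

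SLC7A11 encodes the light chain of the transporter that imports cystine, the source of cysteine for glutathione, in exchange for glutamate. The gene lies on chromosome 4 from 138164097 to 138242349 and had the largest log2 fold change of the 9. Its level was 9.24, 9.11 and 8.34 FPKM under shCtrl, replicate by replicate, and 17.3, 26.8 and 20.3 FPKM under shS1#1. The lowest shS1#1 value was thus far above the highest shCtrl value, while the shS1#1 libraries also spread widely, with replicate 2 the highest. This was a log2 fold change of 1.24 with a standard error of 0.16 (adjusted p = 0.00540). It was 1.07 without shS1#1 replicate 2 (adjusted p = 0.000804), and the adjusted p was at most 0.0338 on leaving out any single library. SLC7A11-AS1, a transcript on the opposite strand, shares 8.97% of the exonic bases and was at 0.304 FPKM on average.

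The partner of SLC7A11 at the membrane is SLC3A2, the heavy chain that it shares with other amino acid transporters. For SLC3A2 the shCtrl libraries gave 52.8, 54.3 and 53.5 FPKM, and the shS1#1 libraries 63.6, 50.4 and 63.0 FPKM. The groups overlapped through shS1#1 replicate 2, and the log2 fold change of 0.13 did not pass (adjusted p = 0.426), while without that library SLC3A2 was called higher (0.24, adjusted p = 0.00428). The ratio of light to heavy chain transcripts was 0.175, 0.168 and 0.156 in the shCtrl libraries and 0.273, 0.531 and 0.323 in the shS1#1 libraries. All shS1#1 ratios were above all shCtrl ratios, with a log2 difference of 1.11 (two-sided exact permutation, p = 0.1, the lowest value possible) that was 0.83 without shS1#1 replicate 2.

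GCLC and GCLM encode the catalytic and modifier subunits of glutamate-cysteine ligase, which carries out the rate-limiting step of glutathione synthesis. GCLC, on chromosome 6 from 53497341 to 53616970, was at 4.35, 4.26 and 3.81 FPKM in shCtrl replicates 1 to 3, against 5.69, 5.71 and 5.31 FPKM in shS1#1 replicates 1 to 3. The groups were clearly separated, and shS1#1 replicate 2 lay beside replicate 1. limma estimated 0.42 ± 0.08 on the log2 scale (estimate ± standard error; adjusted p = 0.0211). The adjusted p was 0.0160 without shS1#1 replicate 2 and between 0.0571 and 0.0843 when any other library was left out.

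GCLM, on chromosome 1 from 93885205 to 93909456, was the subunit transcript with the higher FPKM. Its level was 11.6, 12.002 and 11.4 FPKM under shCtrl, replicate by replicate, and 12.8, 14.3 and 13.8 FPKM under shS1#1. The groups did not overlap, but the log2 fold change of 0.23 (95% interval 0.06 to 0.39) did not pass the threshold (adjusted p = 0.0795). It passed without shS1#1 replicate 2, at a log2 fold change of 0.19 (adjusted p = 0.0440). The ratio of GCLC to GCLM was 0.356 ± 0.0204 in shCtrl and 0.409 ± 0.0313 in shS1#1 cells (SD, n = 3 each), with a log2 difference of 0.19 and no overlap (two-sided exact permutation, p = 0.1, the lowest value possible).

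**Figure D3:**
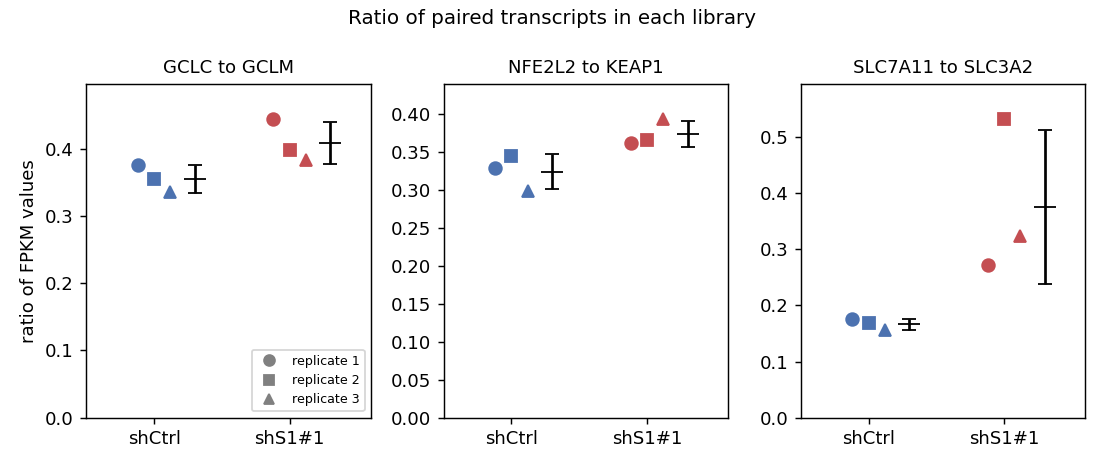
Ratios of FPKM values of paired transcripts in each library, with the symbol giving the replicate number and black bars the mean ± SD (n = 3). All shS1#1 ratios lie above all shCtrl ratios in the 3 pairs, by a log2 difference of 0.19 for GCLC to GCLM, 0.20 for NFE2L2 to KEAP1 and 1.11 for SLC7A11 to SLC3A2.

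TXNRD1 encodes the cytosolic thioredoxin reductase, which passes electrons from NADPH to thioredoxin. The gene lies on chromosome 12 from 104215779 to 104350305, and its promoter windows hold the 3 ARE cores printed above. Its level was 35.6, 34.9 and 33.9 FPKM in shCtrl replicates 1 to 3, against 65.3, 64.3 and 64.7 FPKM in shS1#1 replicates 1 to 3. Both groups were tight, and shS1#1 replicate 2 differed little from the other shS1#1 libraries. This was a log2 fold change of 0.89 with a standard error of 0.06 (adjusted p = 0.000601), and TXNRD1 ranked 69 by p among the 15556 genes tested. On leaving out any single library, the log2 fold change ranged from 0.87 to 0.91 and the adjusted p was at most 0.00885. None of its exonic bases is shared with another annotated gene. RPL18AP3, a ribosomal protein pseudogene within its introns, went from 206 to 132 FPKM and was not called.

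SRXN1 encodes sulfiredoxin, which restores peroxiredoxins that have been inactivated by peroxide. The gene lies on chromosome 20 from 646615 to 653370. It was at 8.27, 8.56 and 11.4 FPKM under shCtrl, replicate by replicate, and 9.90, 5.69 and 9.12 FPKM under shS1#1. The groups overlapped, the highest value was shCtrl replicate 3 and the lowest shS1#1 replicate 2. The log2 fold change was -0.22 with a 95% interval of -0.78 to 0.35 (adjusted p = 0.572), and it was 0.028 without shS1#1 replicate 2 (adjusted p = 0.906). Of the 2698 exonic bases of SRXN1, 85.0% are also exons of AL121758.1, a protein-coding gene on the same strand that was at 0.00795 FPKM on average. How reads on these shared bases were counted is not given in the sources used here, so the level of SRXN1, from 210 to 475 reads per library, is uncertain.

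NQO1, the quinone reductase that is widely used as a readout of NRF2, lies on chromosome 16 from 69706996 to 69726951 and was by far the most abundant of the 9 transcripts. Its level was 218, 219.6 and 227 FPKM in shCtrl replicates 1 to 3, against 287, 237 and 270.2 FPKM in shS1#1 replicates 1 to 3. The shS1#1 values were all higher, but shS1#1 replicate 2 was close to the shCtrl range. The log2 fold change was 0.25 (95% interval 0.03 to 0.48) and did not pass the threshold (adjusted p = 0.121). Without shS1#1 replicate 2 it was 0.33 and passed (adjusted p = 0.00340). The antisense transcript AC092115.2, which shares 17.7% of the exonic bases of NQO1, was listed at 0 in all libraries.

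HMOX1 encodes the inducible haem oxygenase, which breaks haem down to biliverdin, iron and carbon monoxide. The gene lies on chromosome 22 from 35380361 to 35394214 and shares no exonic bases with another annotated gene. Its level was 13.1, 14.0 and 13.6 FPKM under shCtrl, replicate by replicate, and 29.4, 24.5 and 28.2 FPKM under shS1#1. The groups were far apart, with shS1#1 replicate 2 the lowest of its group. limma estimated 1.00 ± 0.09 on the log2 scale (estimate ± standard error; adjusted p = 0.00132). On leaving out any single library it ranged from 0.95 to 1.08, with an adjusted p of at most 0.0134. HMOX1 is also a target of repression by BACH1, and BACH1 had means of 1.58 FPKM in shCtrl and 2.17 FPKM in shS1#1 cells, with overlapping groups (log2 fold change 0.40, adjusted p = 0.267). Without shS1#1 replicate 2 the log2 fold change of BACH1 was 0.18 (adjusted p = 0.421).

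The library that stood apart did not move the 9 genes in a single direction. On the log2 scale, shS1#1 replicate 2 lay 0.51 above the mean of replicates 1 and 3 for SLC7A11, 0.10 above it for GCLM and 0.05 above it for GCLC. It was below the mean of the other 2 for SRXN1 (by -0.73), NQO1 (-0.24), HMOX1 (-0.23), NFE2L2 (-0.12), KEAP1 (-0.08) and TXNRD1 (-0.02). These differences are larger than the range of the shCtrl libraries for SLC7A11, HMOX1, NQO1, GCLM, SRXN1 and KEAP1.

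In shCtrl cells the order of levels by mean FPKM was NQO1, KEAP1, TXNRD1, HMOX1, GCLM, NFE2L2, SRXN1, SLC7A11 and GCLC. The lengths behind these FPKM values cover all annotated exonic bases of a gene (8646 for GCLC, 5420 for GCLM). Levels of different genes therefore compare only roughly. The ranges of 4 neighbouring pairs overlapped, KEAP1 with TXNRD1, GCLM with NFE2L2, NFE2L2 with SRXN1 and SRXN1 with SLC7A11. In shS1#1 cells TXNRD1 stood above KEAP1, and SLC7A11 above NFE2L2, GCLM and SRXN1, without overlap of the ranges between TXNRD1 and KEAP1 or between SLC7A11 and NFE2L2. Mean FPKM over the 6 libraries ran from 4.86 for GCLC, the 53.8th percentile of the genes tested, to 243 for NQO1, the 99.3rd percentile.

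The genes whose values over the 6 libraries followed SLC7A11 most closely, among 6576 other protein-coding genes averaging 5 FPKM or more, were CHST11, a chondroitin sulfotransferase (Pearson r = 0.9996), USP6NL, a GTPase-activating protein of endosome traffic (r = 0.9987), and DTX3L, a ubiquitin ligase (r = 0.9985). For HMOX1 they were SPINT1, an inhibitor of membrane serine proteases (r = 0.9990), ADAP1, an ARF GTPase-activating protein (r = 0.9989), and CXCL8, the chemokine interleukin-8 (r = 0.9987). With 6 points in 2 groups such values are common, and 8.27% of the genes compared had r above 0.95 with SLC7A11 and 7.33% with HMOX1. CHST11 rose from 5.35 ± 0.248 to 11.6 ± 2.48 FPKM and SPINT1 from 50.7 ± 1.18 to 93.8 ± 6.85 FPKM (SD, n = 3 each).

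Beyond the 9 genes, lists of 93 further genes of the pathway and of the enzymes it feeds were examined. Of these, 92 were found among the protein-coding rows of the deposited table. Of the 83 that were tested, 14 (16.9%) were higher and 2 (2.41%) were lower, beside 8.82% and 5.17% of all genes. The median log2 fold change was -0.03 with all 6 libraries, and it was not computed without shS1#1 replicate 2. With scaling to total reads, 10 were higher and 6 lower, and the share of all genes in that fit is not given here. Without shS1#1 replicate 2, 27 of 83 (32.5%) were higher and 10 lower, beside 14.9% and 13.4% of all genes. In the fits that left out any other library, 8 or 9 were higher and 0 to 4 lower, and the shares of all genes in those fits are not given here. Of the 16 genes called with all 6 libraries, 8 were called in all 6 fits that left out a library, ALDH3A1, TXNIP, AKR1C3, SESN2, TRIM16, SQSTM1, FTH1 and NFE2L3. They lie in different roles.

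**Figure D4:**
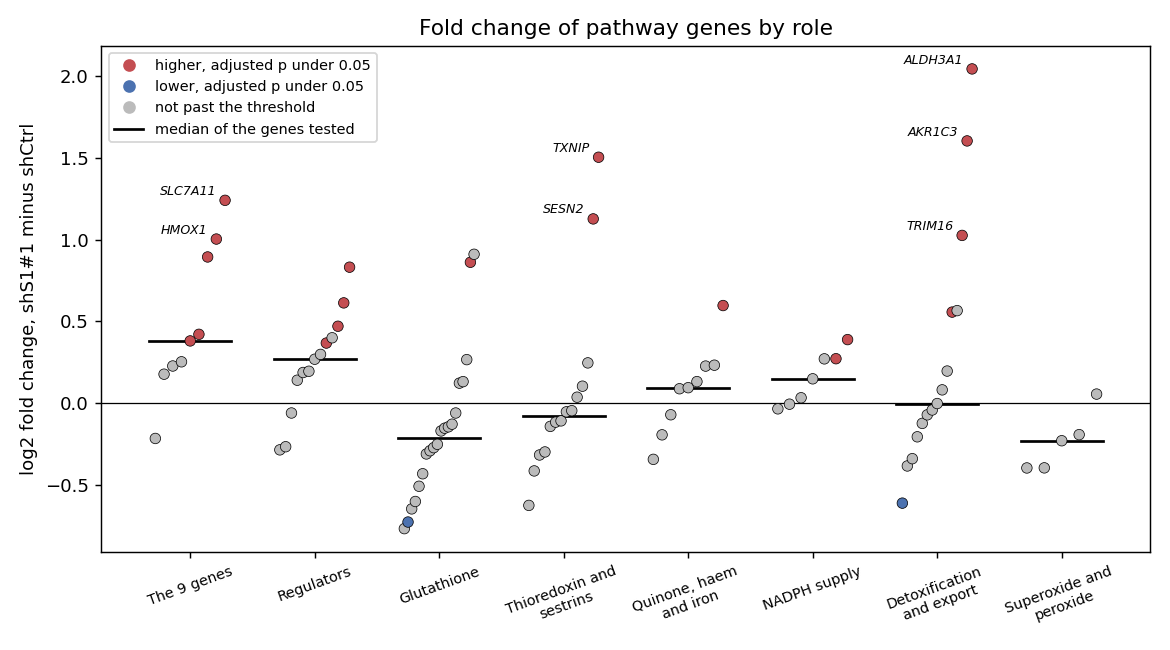
Log2 fold change (shS1#1 minus shCtrl) of the genes tested in each role, 1 point per gene with 6 libraries, red and blue for an adjusted p under 0.05 and grey for the rest; bars are medians. The median is 0.38 for the 9 genes and 0.27 for the regulators, and -0.21 for the other glutathione genes. All medians include shS1#1 replicate 2.

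Among the regulators, 4 of 13 genes tested were higher and none was lower, beside 8.82% and 5.17% of all genes. The median log2 fold change was 0.27 with all 6 libraries. The list mixes partners of NRF2 with genes that act against it, such as CUL3 and BACH1, so its median gives no direction for the pathway. The fit that left out shS1#1 replicate 2 called 7 higher, with the small MAF genes MAFG and MAFK and the KEAP1-binding peptidase DPP3 added, and none lower, beside 14.9% and 13.4% of all genes. SQSTM1, also called p62, binds KEAP1 and carries it to autophagy, and is itself an NRF2 target. It was at 40.5, 39.5 and 39.7 FPKM in shCtrl replicates 1 to 3, against 71.4, 70.5 and 71.2 FPKM in shS1#1 replicates 1 to 3. Both groups were tight and the log2 fold change was 0.83 (adjusted p = 0.000657), close to that of TXNRD1. NFE2L3 and NFE2L1, relatives of NFE2L2, had log2 fold changes of 0.47 (adjusted p = 0.00674) and 0.37 (adjusted p = 0.0436), and the small MAF gene MAFF had 0.61 (adjusted p = 0.0442). NFE2L1 and MAFF were called only without shS1#1 replicate 2 among the 6 fits that left out 1 library, with an adjusted p of up to 0.158 for NFE2L1 and 0.150 for MAFF in the others.

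Of the other glutathione genes, 20 were tested. Among them 1 was higher and 1 lower, beside 8.82% and 5.17% of all genes. With all 6 libraries, 5 of the 20 had a positive log2 fold change and the median was -0.21. The median was not computed without shS1#1 replicate 2. With shS1#1 replicate 2 left out, 5 were higher, GLRX, SLC3A2, GPX2, GPX3 and CHAC1, and 2 lower, beside 14.9% and 13.4% of all genes. GLRX, a glutaredoxin, had a log2 fold change of 0.86 (adjusted p = 0.0286) and GPX8, a peroxidase of the endoplasmic reticulum, fell by 0.73 on the log2 scale (adjusted p = 0.0104). GLRX was called only in the fit without shS1#1 replicate 2 among those that left out 1 library (adjusted p of up to 0.108 in the others), and GPX8 missed the threshold without shCtrl replicate 2 or 3 (adjusted p of up to 0.0579). GSTP1, the most abundant gene of the list and a glutathione transferase, was at 440.3, 437 and 461 FPKM under shCtrl, replicate by replicate, and 429, 309 and 398 FPKM under shS1#1. All shS1#1 values were lower, with replicate 2 the lowest, and the log2 fold change of -0.25 did not pass the threshold (adjusted p = 0.256). Without shS1#1 replicate 2 the log2 fold change of GSTP1 was -0.11 and did not pass (adjusted p = 0.144). GSR, which regenerates reduced glutathione, and GSS, the last enzyme of its synthesis, had log2 fold changes of -0.13 (adjusted p = 0.313) and -0.06 (adjusted p = 0.741).

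In the thioredoxin list, 2 of 14 genes were higher and none was lower, beside 8.82% and 5.17% of all genes. The median log2 fold change was -0.08 with all 6 libraries, and it was not computed without shS1#1 replicate 2. Without shS1#1 replicate 2, 3 were higher and 3 lower, beside 14.9% and 13.4% of all genes. TXNIP, which binds and inhibits thioredoxin, was at 26.3, 26.5 and 25.7 FPKM in shCtrl replicates 1 to 3, against 80.0, 64.8 and 79.3 FPKM in shS1#1 replicates 1 to 3, a log2 fold change of 1.504 (adjusted p = 0.000601). SESN2, a stress-induced sestrin, went up from a mean of 0.856 ± 0.0756 to 1.99 ± 0.168 FPKM (SD, n = 3 per group; log2 fold change 1.13, adjusted p = 0.00423). Thioredoxin itself (TXN), the substrate of TXNRD1, was at 409 ± 7.99 and 424 ± 77.5 FPKM (adjusted p = 0.888). The peroxiredoxins PRDX1 to PRDX6 all had negative log2 fold changes, from -0.62 for PRDX2 (adjusted p = 0.0732) to -0.05 for PRDX6 (adjusted p = 0.804), and none passed the threshold. Without shS1#1 replicate 2, PRDX1, PRDX4, PRDX5 and PRDX6 had positive log2 fold changes that did not pass. In the same fit the peroxiredoxins PRDX2 and PRDX3 and the reductase TXNRD3 were called lower (adjusted p of 0.00277, 0.0144 and 0.0294). Their log2 fold changes in that fit were -0.41, -0.17 and -0.40. TXN was called higher (log2 fold change 0.20, adjusted p = 0.0151).

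Among genes of quinone, haem and iron handling, 1 of 9 tested was higher, FTH1, the ferritin heavy chain that stores iron, and none was lower, beside 8.82% and 5.17% of all genes. In the fit without shS1#1 replicate 2, 3 were higher, FTH1, HMOX2 and the biliverdin reductase BLVRB, and 1 was lower, the transferrin receptor TFRC, beside 14.9% and 13.4% of all genes. FTH1 was at 523, 557 and 529 FPKM under shCtrl, replicate by replicate, and 833, 789 and 813 FPKM under shS1#1, a log2 fold change of 0.60 (adjusted p = 0.00612, and at most 0.0496 when a library was left out). FTH1 has many processed copies in the genome, so its values are uncertain. The ferritin light chain FTL had a log2 fold change of 0.10 (adjusted p = 0.475) and the constitutive haem oxygenase HMOX2 had 0.23 (adjusted p = 0.153), which was 0.32 without shS1#1 replicate 2 and passed (adjusted p = 0.00587).

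Of 7 genes of NADPH supply, the reductant that TXNRD1 and NQO1 use, 2 were higher and none was lower, beside 8.82% and 5.17% of all genes, and 3 were higher and none lower without shS1#1 replicate 2, beside 14.9% and 13.4%. ME1, the malic enzyme, went up from a mean of 21.1 ± 0.527 to 27.7 ± 1.05 FPKM (SD, n = 3 per group; log2 fold change 0.39, adjusted p = 0.0114) and IDH1 from 21.6 ± 0.365 to 26.1 ± 0.367 FPKM (log2 fold change 0.27, adjusted p = 0.0262). ME1 missed the threshold when any shCtrl library was left out (adjusted p of up to 0.0687), and IDH1 passed only without shS1#1 replicate 2 (up to 0.133 in the others). TALDO1, the most abundant of the list, was at 41.1 and 45.7 FPKM (log2 fold change 0.15, adjusted p = 0.271), and was called higher without shS1#1 replicate 2 (log2 fold change 0.22, adjusted p = 0.00892).

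Detoxifying enzymes and exporters held the largest changes, with 4 of 15 genes tested higher and 1 lower, beside 8.82% and 5.17% of all genes, and a median log2 fold change of -0.0017. When shS1#1 replicate 2 was left out, 6 were higher, with AKR1B1 (log2 fold change 0.76, adjusted p = 0.000555) and UGDH added, and 3 were lower, with ABCC3 and PTGR1 added, beside 14.9% and 13.4% of all genes. ALDH3A1, an aldehyde dehydrogenase, was at 48.1, 47.3 and 50.01 FPKM in shCtrl replicates 1 to 3, against 216, 184 and 202 FPKM in shS1#1 replicates 1 to 3. That is 4.14 times the control mean, with the groups far apart (log2 fold change 2.04, adjusted p = 0.000168). AKR1C3, an aldo-keto reductase, went up from a mean of 0.873 ± 0.130 to 2.85 ± 0.296 FPKM (SD, n = 3 per group; log2 fold change 1.604, adjusted p = 0.00174), and is uncertain because its paralogs are nearly identical to it. TRIM16, a ubiquitin ligase, went up from a mean of 12.9 ± 0.557 to 26.6 ± 2.91 FPKM (SD, n = 3 per group; log2 fold change 1.03, adjusted p = 0.00178), while its close copy TRIM16L had a log2 fold change of -0.07 (adjusted p = 0.614). OSGIN1, an oxidative stress-induced growth inhibitor, had a log2 fold change of 0.56 (adjusted p = 0.0351) and passed only without shS1#1 replicate 2 among the fits that left out 1 library. The exporter ABCC4 fell by 0.61 on the log2 scale (adjusted p = 0.0124), and missed the threshold without shS1#1 replicate 3 or any shCtrl library (adjusted p of up to 0.0643).

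None of the 5 superoxide and peroxide genes was called by limma with 6 libraries, beside 8.82% of all genes higher and 5.17% lower, and 1 was lower and none higher without shS1#1 replicate 2, beside 13.4% and 14.9%. SOD1, the cytosolic superoxide dismutase and the most abundant of them, was at 91.5 FPKM in shCtrl and 71.2 FPKM in shS1#1 cells (log2 fold change -0.39, adjusted p = 0.2201). Without shS1#1 replicate 2 its log2 fold change was smaller, -0.17, and passed the threshold (adjusted p = 0.0469). Catalase (CAT) was at 10.3 and 10.7 FPKM (log2 fold change 0.06, adjusted p = 0.680).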

How the data were processed

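Total RNA of 6 NCI-N87 libraries was measured. The deposited table gives FPKM, computed by the authors, for every gene in each library, beside its length and position. The submitters' processing notes name HISAT2 2.0.5, featureCounts 1.5.0-p3, DESeq2 1.20.0 and the build hg38, without their order or settings. FPKM times gene length was a whole multiple (tolerance 0.05) of a single step per library for 100% of values above 0, which gave reads per gene, so the depth is known; the steps held median-of-ratios factors from 0.914 to 1.11. Depth differed little, and counting error is largest for SRXN1. Gene coordinates of the 9 genes equal GENCODE 29.

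Groups follow the sample titles. Genes averaging 0.5 FPKM or more were tested with limma 3.58.1 in R 4.3.3 (lmFit, eBayes with trend) on log2(FPKM + 0.1), a scale that understates the change of low genes, with Benjamini-Hochberg adjustment over all genes tested. The code was tested on simulated reads. The labels call the samples biological replicates without naming separate infections, so p-values measure the spread between these samples. Ratios were compared with exact permutation tests, and promoter windows searched in Python 3.11.15. The 9 genes, lists and tests were chosen with earlier results of these data known. Named are the 9 genes, up to 2 genes per list and direction averaging 1 FPKM or more, the most abundant of each list and the 3 genes most like SLC7A11 and HMOX1; others named (such as SLC3A2, BACH1, TRIM16, the peroxiredoxins, OSGIN1 and all genes in the closing section) were chosen after their values were seen. GPX1 was not found among the protein-coding rows, to which the lists were limited, and was not analysed here. SOD2, on 2 rows, was counted once. Alternatives covered the pseudocount, filter, scaling, trend, biotype, voom, the replicate number as a block and leaving out each library; scaling to reads outside the mitochondrial genome was added after seeing the data.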

Additional observations from a re-analysis of the deposited data

How the results depend on the processing

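SLC7A11, HMOX1 and TXNRD1 were called higher under all 17 alternatives, and no member of the 9 was called lower under any. The number of the 9 called higher was 3 with the replicate block and 4 with scaling to total reads. It was between 3 and 8 when a library was left out. NFE2L2 (adjusted p = 0.0904) and GCLC (adjusted p = 0.0625) were the genes lost with the block. With scaling to total reads NFE2L2 was lost (adjusted p = 0.0602 by limma). The number past a log2 fold change of 1 was 1 with a pseudocount of 1 or 0.5, with scaling to total reads and with scaling to reads outside the mitochondrial genome, and 1 to 2 when a library was left out. Of the wider lists, 8 genes were higher and 1 lower with the replicate block. Scaling to total reads gave 10 higher and 6 lower, and scaling to reads outside the mitochondrial genome gave 10 higher and 7 lower. With no filter on low values 10 were higher and 2 lower, and without the mean-variance trend 11 were higher and 3 lower. Among protein-coding genes only and with voom, 16 were higher and 6 lower. Leaving out a library gave 8 to 27 higher and 0 to 10 lower. Among these alternatives, the share of all genes called is given only for the fit without shS1#1 replicate 2. The other counts are therefore not set against all genes here. The log2 fold change of SRXN1 (-0.22) ran from -0.37 without shS1#1 replicate 1 to 0.028, a reversed sign, without shS1#1 replicate 2. When a library was left out, the log2 differences ran from 0.13 to 0.24 for GCLC to GCLM, 0.15 to 0.25 for NFE2L2 to KEAP1 and 0.83 to 1.31 for SLC7A11 to SLC3A2. The causes were not tested. Same-numbered libraries deviated from their group means with correlations of -0.09, 0.08 and 0.14, and differently numbered ones with -0.16 to 0.14. These values show no pairing by number. With 3 libraries per group, and shS1#1 replicate 2 apart, they cannot exclude it. Scaling to total reads moved the median log2 fold change of all genes from -0.02 to -0.10. Depth limits genes with few reads.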

Other observations

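Several aldo-keto reductase genes that NRF2 is known to induce were below the expression filter. AKR1C2 had 11, 13 and 9 reads in the shCtrl libraries and 62, 50 and 58 reads in the shS1#1 libraries, and AKR1C1 had 12, 14 and 19 reads against 47, 55 and 63 reads. AKR1B10 had 0, 3 and 1 reads against 5, 7 and 9 reads. The groups did not overlap for any of these 3 genes, which were picked after their values were seen, and they did not overlap for 41.4% of the genes that passed the filter. ABCC2, an exporter that NRF2 is known to induce, was also below the filter and had lower FPKM in every shS1#1 library than in any shCtrl library, with 22, 23 and 23 reads against 20, 15 and 20 reads (log2 fold change -0.10, adjusted p = 0.875 with no filter). With no filter on low values, the log2 fold change of AKR1C2 was 1.79 (adjusted p = 0.0202 by limma), that of AKR1C1 was 1.38 (adjusted p = 0.0573) and that of AKR1B10 was 1.41 (adjusted p = 0.108). The AKR1C genes are nearly identical in sequence, so reads may be split between them. CBR3, another NRF2 target, had at most 6 reads in a library, and GSTA1 had 0 in all 6.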
